A study of Mus musculus with 2 samples.

Results

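The glycolysis and hypoxia-response genes are a set of 32 genes, of 32285 in the count matrices, that was chosen by gene symbol. The set holds the enzymes of glycolysis from hexokinase to lactate dehydrogenase, the PFKFB regulators, glucose and monocarboxylate transporters, pyruvate dehydrogenase kinase 1, Hif1a with its prolyl hydroxylase Egln1, and 4 genes that are known targets of hypoxia-inducible factor (HIF). All 32 symbols were found, under 33 gene identifiers, because Aldoa has a second identifier (ENSMUSG00000114515) at which no UMI was counted. The genes were measured by single-cell RNA-seq in lungs of female BALB/cJ mice, 12 weeks old, that carried 4T1 tumors, a transplanted mouse model of triple-negative breast cancer that spreads to the lung. Both groups received 100000 4T1 cells, and lungs were taken on day 14. The NP group received nanoparticles of poly(lactide-co-glycolide) (PLG) that carried no drug, intravenously every 3 days from day 1, 5 doses in all, and the control group received intravenous saline. Lungs of 4 mice per group were pooled, by the labels, into a single library, so neither group has a biological replicate and no comparison between them carries a test.

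Glycolysis converts glucose to pyruvate in the cytosol, and lactate dehydrogenase A and the exporter encoded by Slc16a3 (MCT4) carry the carbon on to lactate when oxidative metabolism is limited. Neutrophils are known to have few mitochondria and to rely largely on glycolysis. When oxygen falls, prolyl hydroxylases stop marking HIF1A for degradation, and the stabilized factor activates glucose transporters, most glycolytic enzymes, and the mitophagy receptors Bnip3 and Bnip3l. HIF1A is controlled mainly at the protein level, so the RNA of its targets and not its own RNA reads out its activity.

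Promoters of 4 genes are shown because these genes carry the main patterns described here. Bnip3, Slc2a1 and Slc2a6 were higher in mature than in immature neutrophils of both libraries, and Eno3 was highest in a single cluster of monocytes. These genes were chosen for display after their values had been seen. Each window runs from 250 bases before to 50 bases after the first RefSeq transcript start listed for the gene in GRCm38.p6 (mm10), 5′ to 3′ on the strand of the gene, and capitals mark ACGTG and GCGTG on either strand, the core of the element that HIF binds.
Bnip3, chr7:138909457-138909756, minus strand: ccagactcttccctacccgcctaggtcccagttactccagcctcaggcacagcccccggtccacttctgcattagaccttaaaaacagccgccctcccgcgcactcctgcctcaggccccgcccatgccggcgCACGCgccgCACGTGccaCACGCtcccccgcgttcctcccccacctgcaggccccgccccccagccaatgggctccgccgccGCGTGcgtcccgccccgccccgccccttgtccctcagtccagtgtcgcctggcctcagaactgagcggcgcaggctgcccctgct
Slc2a1, chr4:119108495-119108794, plus strand: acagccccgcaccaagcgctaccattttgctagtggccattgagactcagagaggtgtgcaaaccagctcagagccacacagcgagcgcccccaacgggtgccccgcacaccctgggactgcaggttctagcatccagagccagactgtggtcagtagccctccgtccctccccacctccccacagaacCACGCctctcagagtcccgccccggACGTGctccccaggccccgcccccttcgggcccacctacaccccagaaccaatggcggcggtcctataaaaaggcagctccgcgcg
Slc2a6, chr2:27027949-27028248, minus strand: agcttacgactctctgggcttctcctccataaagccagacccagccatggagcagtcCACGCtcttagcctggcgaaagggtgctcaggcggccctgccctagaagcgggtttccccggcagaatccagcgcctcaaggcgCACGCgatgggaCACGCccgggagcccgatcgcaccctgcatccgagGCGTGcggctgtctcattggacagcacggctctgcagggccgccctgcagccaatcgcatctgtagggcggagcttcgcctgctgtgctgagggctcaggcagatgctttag
Eno3, chr11:70656926-70657225, plus strand: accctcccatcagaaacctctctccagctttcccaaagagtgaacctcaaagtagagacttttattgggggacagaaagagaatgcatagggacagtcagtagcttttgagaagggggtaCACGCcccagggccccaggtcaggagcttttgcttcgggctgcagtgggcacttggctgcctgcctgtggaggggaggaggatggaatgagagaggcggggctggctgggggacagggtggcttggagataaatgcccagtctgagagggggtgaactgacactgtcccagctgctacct
The Bnip3 window holds 2 matches to ACGTG, which overlap in 1 palindromic CACGTG, and 3 to GCGTG. The Slc2a1 window holds 1 of each, the Slc2a6 window holds 4 matches to GCGTG, and the Eno3 window holds 1 match to GCGTG. Windows were matched for 29 of the 32 genes, not for Slc2a3, Bnip3l and Ndrg1. ACGTG was present in 16 of the 29 (55.2%), against 19.7% of the 27025 genes with a window, and 24 of the 29 (82.8%) held ACGTG or GCGTG, against 43.8% of all genes. Tpi1, Gpi1, Aldoa, Pkm and Hk1 had neither in these windows. A match is a run of letters and not a measured binding site. The set was chosen to include known HIF targets, so a larger share of the motif than in all genes is not a result of these data.

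Cells were taken as barcodes in which 500 to 5000 genes were detected and mitochondrial genes held less than 7.5% of UMIs, which left 8662 saline and 8333 NP cells, with medians of 6474.5 and 6008 UMIs per cell. The libraries shared 21 barcode sequences among these cells. Clusters were named from marker genes without use of the 32 genes, and 8 classes had at least 100 cells in each library. Neutrophils were 64.4% of saline and 37.0% of NP cells, monocytes 9.34% and 18.5%, and endothelial cells 6.30% and 20.4%. Levels are given as counts per 1000000 UMIs of the class (CPM), pooled over cells of a library, and 95% intervals (exact Poisson for levels, exact conditional binomial for ratios) cover counting error only. Levels within one library are compared here across classes and not between genes, except for Ldhb beside Ldha in neutrophils. Reads of Gapdh, Aldoa, Eno1 and Pkm could be split with near-identical copies of these genes elsewhere in the genome.

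Neutrophils and monocytes held the highest levels of most of the genes, and the pattern was shared by both libraries. The 32 genes together took 0.663% of neutrophil UMIs in saline and 0.604% in NP, compared with 0.466% and 0.465% in monocytes and 0.265% and 0.212% in B cells. The class with the highest level was the same in both libraries for 27 of 32 genes, and for 18 of these its interval lay clear of that of the next class in each library. Of those 18 genes, 10 were highest in neutrophils (Hk3, Gpi1, Gapdh, Pkm, Ldha, Slc2a1, Slc2a3, Slc2a6, Slc16a3 and Egln3), 6 in monocytes (Hk2, Pgk1, Pgam1, Eno1, Eno3 and Ndrg1), and 2 in alveolar macrophages (Aldoc and Bnip3l).

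**Figure D1:**
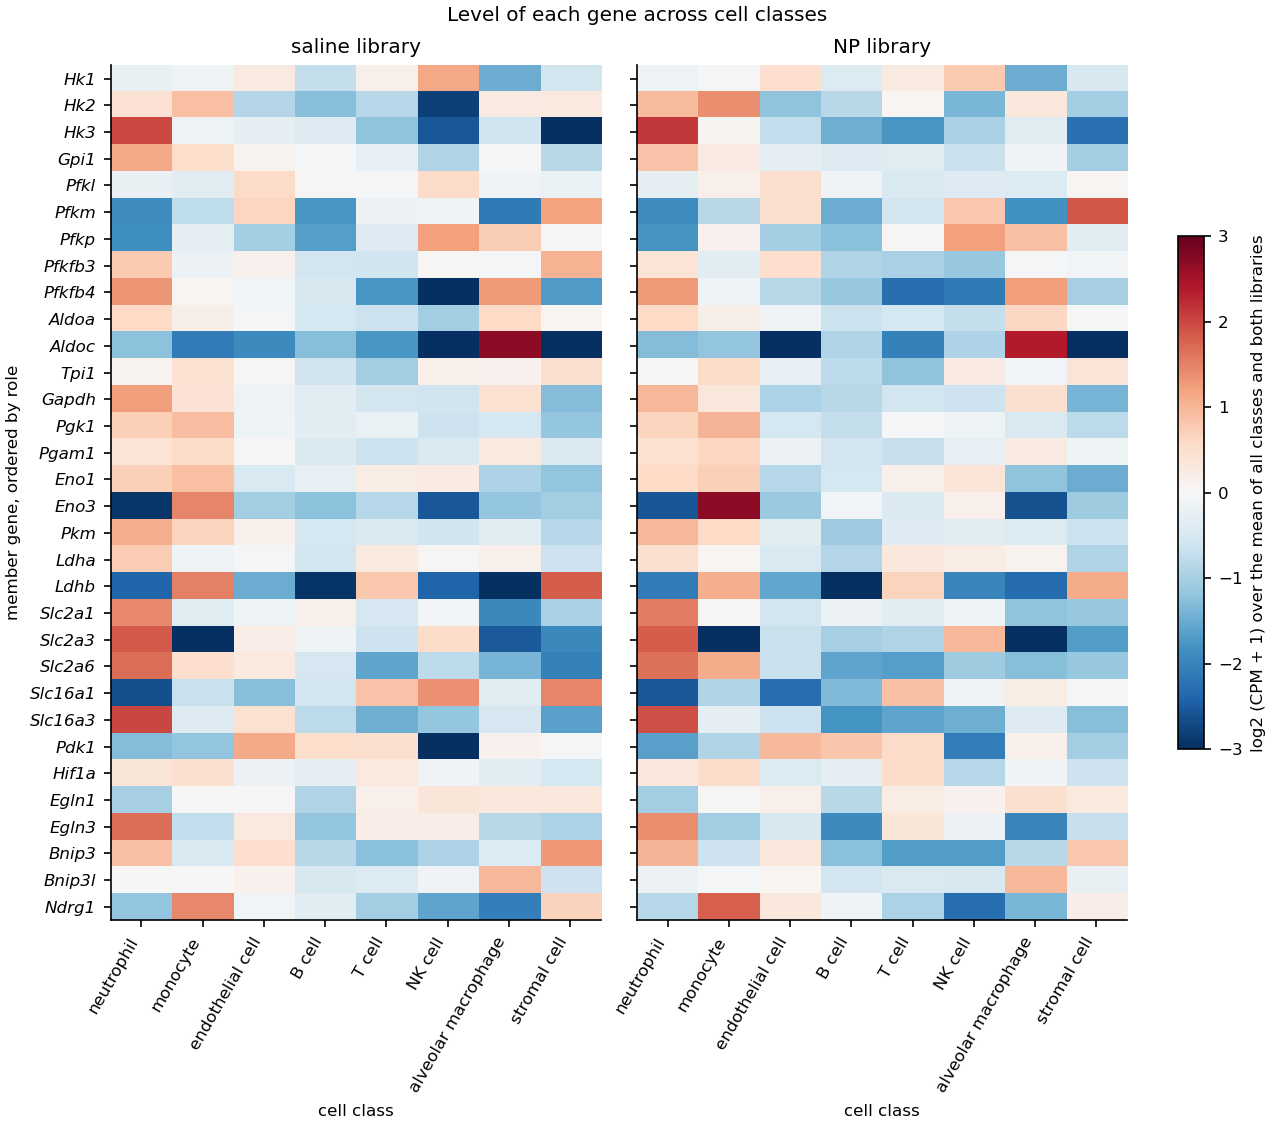
Level of each of the 32 genes in 8 cell classes in the saline (left) and NP (right) library, as the log2 of CPM + 1 over the mean of that gene across all classes and both libraries; red is above and blue below that mean. Slc16a3, Slc2a3, Slc2a6 and Hk3 are highest in neutrophils in both panels, Eno3 and Ndrg1 in monocytes, and Aldoc in alveolar macrophages.

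Of the 5 transporter genes, 4 were highest in neutrophils. Slc16a3, the lactate exporter, was at 344 CPM in saline and 328 CPM in NP neutrophils, and the next highest class was endothelial cells at 117 CPM in saline and monocytes at 69.6 CPM in NP. The facilitative glucose transporter genes Slc2a1 (84.3 and 90.5 CPM), Slc2a3 (155 and 152 CPM) and Slc2a6 (71.4 and 70.0 CPM) were likewise highest in neutrophils. In monocytes Slc2a3 was nearly absent, at 4.51 CPM in saline and 3.69 CPM in NP, while Slc2a6 was at 31.1 and 47.7 CPM. Slc16a1, the gene of the monocarboxylate transporter MCT1, showed the reverse distribution and was at 0.292 and 0.374 CPM in neutrophils, below its level in every other class.

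Among the enzymes, isoforms of one step were used by different cells. Hk3, a hexokinase typical of myeloid cells, was at 91.9 CPM in saline and 101 CPM in NP neutrophils and at or below 23.6 CPM in every other class. Hk2, the inducible hexokinase, was highest in monocytes (50.9 and 71.9 CPM), and Hk1, the constitutive form, was highest in NK cells (61.8 and 47.7 CPM), where its interval overlapped that of endothelial cells in NP. Pfkp, the platelet-type phosphofructokinase, was at 140 CPM in NK cells of both libraries and at 98.8 and 109 CPM in alveolar macrophages, but at 15.8 and 16.7 CPM in neutrophils. Aldoc was at 51.3 and 41.3 CPM in alveolar macrophages and at or below 3.31 CPM elsewhere. Ldhb, which favors the conversion of lactate to pyruvate, was found in stromal cells (73.7 and 44.5 CPM), monocytes (59.4 and 43.7 CPM) and T cells (35.8 and 32.5 CPM), whereas in neutrophils it was at 3.00 and 3.90 CPM against 459 and 381 CPM of Ldha. Stromal cells and monocytes did not differ in Ldhb beyond their intervals in either library.

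The hypoxia genes had no common distribution. Hif1a was at 127 CPM in saline and 125 CPM in NP neutrophils, at 139 and 147 CPM in monocytes, and between 54.2 and 145 CPM in every other class of either library. Bnip3l, which encodes a mitophagy receptor that also clears mitochondria from maturing red cells, was at 423 CPM in alveolar macrophages of both libraries and at or below 229 CPM elsewhere. Ndrg1, a stress-responsive gene induced by HIF, was at 68.6 and 87.3 CPM in monocytes and at 10.3 and 13.1 CPM in neutrophils. Egln3, an oxygen-sensing hydroxylase that is itself a HIF target, was highest in neutrophils, at 14.5 and 11.6 CPM, and at or below 5.26 CPM elsewhere.

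Within neutrophils, the set split between clusters of high and low immature marker RNA, and it did so in the same way in both libraries. Neutrophils formed 9 clusters, which were ordered by the RNA of immature neutrophil markers such as Camp, Ngp and Ltf. Between cluster 7, led by Camp, Ngp and Ltf (511 saline and 333 NP cells), and cluster 0, the one with the lowest immature marker score among those with at least 100 cells in each library (1384 and 683 cells), the 20 genes measured in both libraries had the same sign of difference in both. Of these 20, 8 were over 1.5-fold higher in cluster 0 in both libraries and 5 were over 1.5-fold lower in both. By library, 13 of 24 measured genes were that much higher and 5 lower in saline, and 8 of 20 higher and 6 lower in NP. Of all genes measured, 67.9% in saline and 61.1% in NP were that much higher in cluster 0 and 9.95% and 12.5% were that much lower. The median of the set was 0.70 log2 over 24 genes in saline and -0.04 log2 over 20 genes in NP. The all-gene medians were 1.06 and 0.89 log2. Pfkl, Pfkp, Pfkfb3 and Egln1 had enough UMIs to be measured in saline only, at 1.29, 1.02, 0.83 and 2.35 log2. The set medians are thus over different genes and do not show a difference between the libraries. Past 1.5-fold, the set had a smaller share of higher genes and a larger share of lower genes than genes at large. These clusters were built from the same cells, although without the 32 genes, and the values are a description. Cluster 0 is called mature here for its low immature score. Its leading genes included Saa3, Il1b, Ptgs2 and Ccrl2. Its mature marker score, 4.14, was below those of clusters 9 (4.26), 11 (4.17) and 1 (4.15). Maturation was not separated from other differences between the 2 clusters. Cells of cluster 7 were also deeper, with a median of 22671 UMIs in saline and 21277 in NP against 3560.5 and 3624 in cluster 0.

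**Figure D2:**
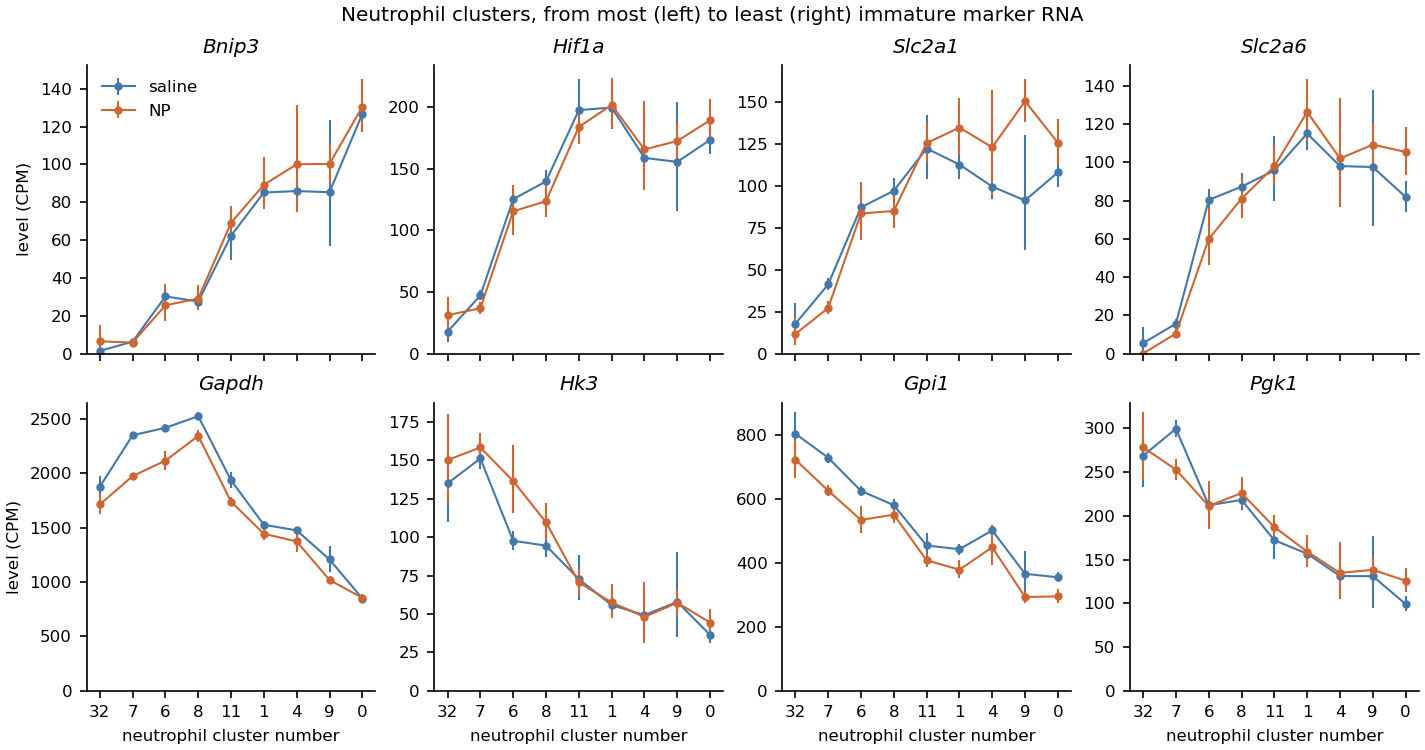
Level in CPM of 8 genes in the 9 neutrophil clusters, ordered from the highest to the lowest mean RNA of immature markers, in saline (blue) and NP (orange), with exact Poisson 95% intervals. Bnip3, Hif1a, Slc2a1 and Slc2a6 are lowest in the immature clusters 32 and 7, and Gapdh, Hk3, Gpi1 and Pgk1 are lowest in cluster 0, except that Gpi1 in NP is at 293 CPM in cluster 9 and 295 CPM in cluster 0.

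Bnip3 had the widest range. Its level in saline was 1.36 CPM (1 UMI) in the cycling immature cluster 32, 6.29 CPM in cluster 7, 30.2 CPM in cluster 6, 27.5 CPM in cluster 8, between 62.4 and 85.9 CPM in clusters 11, 1, 4 and 9, and 127 CPM in cluster 0. In NP the corresponding levels were 6.48 (5 UMIs), 5.80, 25.5 and 29.1 CPM, then 69.2 to 100.3 CPM, and 131 CPM. Cluster 0 thus exceeded cluster 7 by 4.33 log2 (95% interval 3.98 to 4.70) in saline and by 4.49 log2 (4.02 to 5.00) in NP, or 20.1-fold and 22.5-fold.

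Another 7 genes were over 1.5-fold higher in mature cells in both libraries. Hif1a was at 47.1 CPM in cluster 7 and 173 CPM in cluster 0 in saline, and at 36.8 and 189 CPM in NP, differences of 1.88 and 2.36 log2. Slc2a6 differed by 2.40 log2 in saline and 3.33 log2 in NP, Slc2a1 by 1.39 and 2.21 log2, and Pfkfb4, a bifunctional enzyme that sets the level of the phosphofructokinase activator fructose 2,6-bisphosphate, by 1.79 log2 in both. Each of these 5 genes, Bnip3 included, stood above the all-gene median in both libraries. Bnip3l, Tpi1 and Slc16a3 were over 1.5-fold higher in both libraries too, by 0.67 to 1.13 log2, but relative to the all-gene median their differences were between -0.39 and 0.17 log2, and those of Slc16a3 and Tpi1 were below it in saline.

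The 5 genes that were lower in both libraries were Gapdh, Hk3, Pgk1, Gpi1 and Slc2a3. Gapdh was at 2348 CPM in cluster 7 and 848 CPM in cluster 0 in saline and at 1972 and 855 CPM in NP, which is 2.77-fold and 2.31-fold lower in the mature cluster. Hk3 was 4.16-fold and 3.57-fold lower, Pgk1, the first ATP-forming enzyme of the pathway, 3.02-fold and 2.01-fold lower, and Gpi1, the isomerase that follows hexokinase, 2.05-fold and 2.12-fold lower. Slc2a3 differed in the same direction, by -0.81 and -0.69 log2, opposite to the other glucose transporters Slc2a1 and Slc2a6. Aldoa and Eno1 differed by at most 0.25 log2 in either library. Relative to the all-gene median, Aldoa stood at -1.04 log2 in saline and -0.64 log2 in NP, and Eno1 at -1.13 and -1.02 log2. Pkm (-1.61 and -1.07 log2) and Ldha (-1.60 and -1.54 log2) were below that median as well. Of the 32 values past 1.5-fold in this contrast over both libraries, 32 kept their direction under 8 other cell filters and clusterings, and 27 stayed past 1.5-fold in all of them where the gene was measured.

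Between NP and saline, the set as a whole hardly moved in neutrophils. Of the 32 genes, 27 had at least 200 UMIs over both libraries, and 0 of these 27 were past 1.5-fold, against 3.93% higher and 4.26% lower of the 7254 genes with that many UMIs. Pfkm, Aldoc, Eno3, Slc16a1 and Pdk1 were under the minimum. The median log2 ratio (NP over saline) of the 27 genes was -0.04, beside -0.13 for all genes, and 21 of the 27 lay above that all-gene median. For Pfkl, Pfkfb4, Aldoa, Tpi1, Pgk1, Eno1, Pkm, Slc2a3, Slc2a6, Slc16a3, Hif1a and Egln1 the ratio was below 0 but above that median, so its direction depends on whether ratios are centred.

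**Figure D3:**
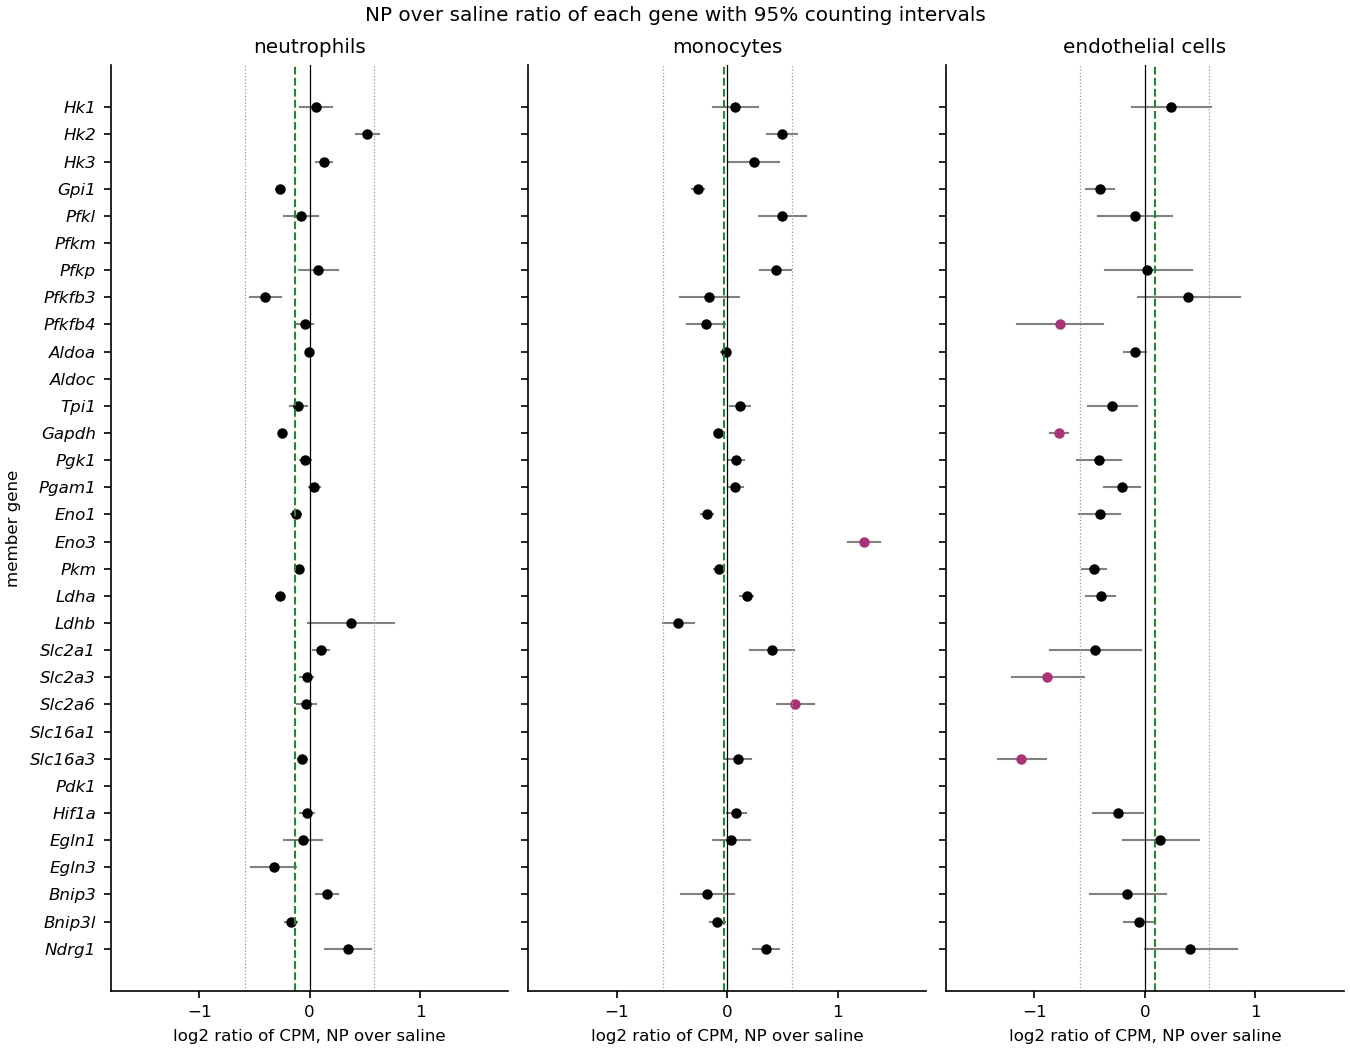
Log2 ratio of CPM, NP over saline, of each gene with at least 200 UMIs in neutrophils, monocytes and endothelial cells, with exact conditional 95% intervals that cover counting error only. Dotted lines mark 1.5-fold, the green dashed line the median of all genes, and purple points the genes past 1.5-fold, which are 0 in neutrophils, 2 in monocytes and 4 in endothelial cells.

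Hk2 had the largest ratio in neutrophils. It was at 36.6 CPM in saline and 52.6 CPM in NP, a ratio of 0.52 log2 (0.42 to 0.63), which became 0.65 relative to the all-gene median and then passed 1.5-fold. With clusters given the same weight in both libraries it was 0.23 log2, and with equal weight per cell 0.29 log2. This ratio was not uniform over neutrophil clusters. The Hk2 ratio was 0.85 log2 in the immature cluster 7 and 0.80 in cluster 4. It was -0.37 in the interferon-stimulated cluster 9 and -0.43 in cluster 11, which held 77 and 174 saline cells and 735 and 503 NP cells. Slc2a1 also differed between clusters, with 41.3 CPM in saline and 27.2 CPM in NP in cluster 7 (-0.60 log2) and 91.4 and 151 CPM in cluster 9 (0.72 log2), while in the whole class it was at 84.3 and 90.5 CPM.

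Lower levels in NP neutrophils were small and found in most neutrophil clusters. Ldha was at 459 CPM in saline and 381 CPM in NP (-0.27 log2, -0.30 to -0.23) and was lower in each of 9 neutrophil clusters, by 0.15 to 0.49 log2, and lower than the all-gene median of the cluster in each of the 9. Gpi1 was at 573 and 475 CPM (-0.27 log2) and was lower in all 9 clusters as well, in 8 of them below the all-gene median. Gapdh, at 1983 and 1667 CPM, differed by -0.25 log2 and was lower in 8 of 9 clusters, in 6 of them below the all-gene median. The class ratios of Ldha, Gpi1 and Gapdh lay between the quartiles of all neutrophil genes, -0.28 and 0.03 log2. Pfkfb3, which drives fructose 2,6-bisphosphate synthesis, was at 31.6 and 23.9 CPM (-0.40 log2, -0.54 to -0.26) and was lower in each of the 7 clusters in which it had 200 UMIs.

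The genes with most UMIs in the remaining roles showed little difference. In the aldolase step Aldoa was at 671 and 667 CPM (-0.01 log2), and in lower glycolysis Pkm was at 739 and 693 CPM (-0.09 log2) and Eno1 at 292 and 267 CPM (-0.12 log2). Pfkl (-0.07 log2) and Pfkp (0.08 log2) had intervals that included 0, as did Hif1a (-0.02 log2) and Egln1 (-0.06 log2). Slc16a3 was at 344 and 328 CPM (-0.07 log2). Of the HIF targets, Ndrg1 (0.35 log2) and Bnip3 (0.16 log2) were higher and Egln3 (-0.32 log2) and Bnip3l (-0.17 log2) lower, all with intervals that excluded 0. Genes of the dissociation-stress list took 1.44% of neutrophil UMIs in saline and 1.87% in NP, and the part of this in the ratios was not tested.

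In monocytes, 2 of 26 measured genes were past 1.5-fold, and both were higher in NP, beside 4.09% of 8225 genes higher and 1.76% lower. The median of the 26 genes was 0.08 log2, beside -0.03 for all genes. Pfkm, Aldoc, Slc2a3, Slc16a1, Pdk1 and Egln3 were under 200 UMIs. The 2 genes were Eno3 and Slc2a6.

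Eno3, the enolase best known from muscle, was at 39.3 CPM in saline and 92.8 CPM in NP monocytes, a ratio of 1.24 log2 (1.10 to 1.39). Most of its RNA came from cluster 14, which carried the non-classical monocyte genes Cd300e, Treml4 and Pou2f2. In that cluster Eno3 was at 546 CPM in saline and 524 CPM in NP, whereas in cluster 2, which carried the classical genes, it was at 3.94 and 1.74 CPM. The difference between the 2 clusters was 7.12 log2 (6.62 to 7.65) in saline and 8.23 log2 (7.62 to 8.93) in NP, or 139-fold and 301-fold, and ranged from 4.91 to 8.35 log2 over 8 other filters and clusterings. Cluster 13, with markers of both kinds, was between them at 43.1 and 49.8 CPM. Its leading genes also included H2-Aa, H2-Eb1, Cd74 and H2-Ab1. Its marker score was 3.46 for monocyte and 2.36 for the next class, C1q macrophage.

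Within clusters, the Eno3 ratio was -0.06 log2 in cluster 14 and 0.21 log2 in cluster 13. Cluster 14 held 11.6% of saline monocytes (94 of 809, exact binomial 95% interval 9.49 to 14.0%) and 24.4% of NP monocytes (377 of 1545, 22.3 to 26.6%), and it held 75.2% and 83.2% of the Eno3 UMIs of the class. With clusters given the same weight in both libraries, the Eno3 ratio was -0.052 log2. The level within the non-classical cluster thus differed little between the libraries, and its share of the monocytes differed.

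**Figure D4:**
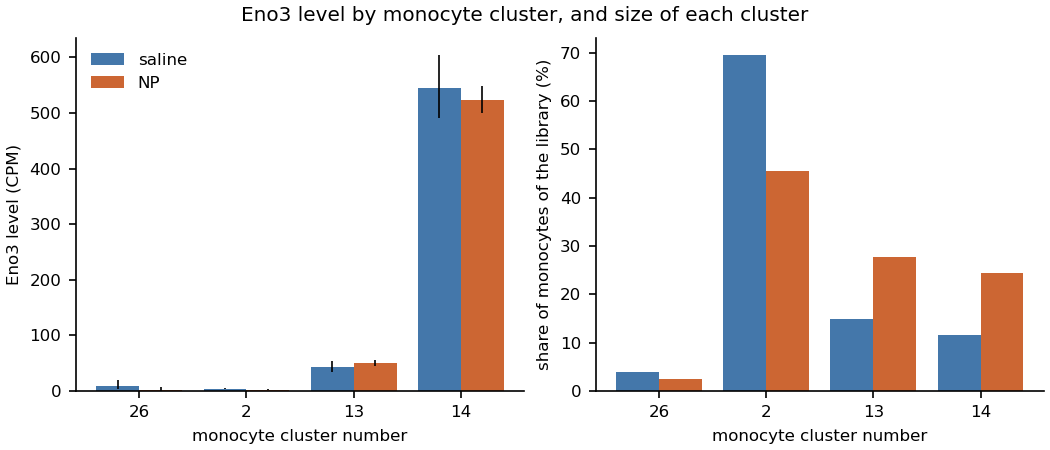
Left, level of Eno3 in CPM in 4 monocyte clusters in saline (blue) and NP (orange), with exact Poisson 95% intervals; right, share of the monocytes of each library in each cluster, in percent. Eno3 is near 500 CPM or above in cluster 14 of both libraries, and this cluster is 11.6% of saline and 24.4% of NP monocytes.

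Slc2a6, a glucose transporter of lysosomal membranes, behaved otherwise. It was at 31.1 CPM in saline and 47.7 CPM in NP monocytes (0.62 log2, 0.45 to 0.79), was past 1.5-fold in 10 of 16 other settings, with a lowest value of 0.39 log2, and was higher in NP in each of the 3 monocyte clusters with 200 UMIs. These levels were 34.1 and 44.6 CPM in cluster 2, 14.4 and 47.3 CPM in cluster 13, and 28.8 and 59.8 CPM in cluster 14, with ratios of 0.39, 1.72 and 1.05 log2. The saline level in cluster 14 rested on 19 UMIs, so the size of that ratio is uncertain. Given the same cluster weights, its ratio was 0.76 log2.

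Several other upper-pathway genes of monocytes were higher in NP without reaching 1.5-fold. Hk2 was at 50.9 and 71.9 CPM (0.50 log2), Pfkl at 20.7 and 29.2 CPM (0.50 log2), Pfkp at 47.6 and 64.6 CPM (0.44 log2) and Slc2a1 at 23.4 and 30.9 CPM (0.41 log2), and each interval excluded 0. Each of Hk2, Pfkl and Pfkp was higher in every monocyte cluster with 200 UMIs, which were 2, 2 and 3 clusters. Other upper-pathway genes were lower in NP. Pfkfb4 was at 38.5 and 33.6 CPM (-0.19 log2, -0.36 to -0.02) and Pfkfb3 at 15.6 and 13.9 CPM (-0.16 log2, -0.43 to 0.10), and Gpi1 was lower too. Within the classical cluster 2, Hk2 (0.63 log2) and Ndrg1 (0.66 log2) were past 1.5-fold, 2 of 25 genes, with 0 lower, against 2.06% higher and 1.2% lower of the 7092 genes measured there. In cluster 13, Pfkl (18.8 and 33.4 CPM, 0.83 log2) and Slc2a6 were past 1.5-fold higher, 2 of 24 genes, against 5.21% of 4737 genes, and 0 were lower, against 2.74%. In the non-classical cluster 14, Pfkp (42.4 and 74.3 CPM, 0.81 log2), Aldoa (306 and 460 CPM, 0.59 log2) and Slc2a6 were higher, 3 of 16 genes against 5.2% of 3076, and Pfkfb4 (81.9 and 50.4 CPM, -0.70 log2) was lower, against 3.84%. The saline levels of Pfkp and Pfkfb4 there rested on 28 and 54 UMIs. Genes with most UMIs in lower glycolysis differed little, with Gapdh at 1122 and 1060 CPM (-0.08 log2), Pkm at 550 and 521 CPM (-0.08 log2) and Eno1 at 334 and 294 CPM (-0.18 log2). Gpi1 (-0.26 log2) and Ldhb (-0.44 log2) were lower, and Ldha was higher (0.18 log2). Ldhb was 3.69-fold and 4.97-fold lower in the non-classical than in the classical cluster of saline and NP, and Ndrg1 was 3.49-fold and 5.84-fold lower, while Slc16a3 was 2.77-fold and 2.60-fold higher. In saline the non-classical levels of Ldhb and Ndrg1 rested on 12 and 14 UMIs. Their intervals there were -2.84 to -1.07 and -2.68 to -1.05 log2, so the size of these differences is uncertain. Under 8 other filters and clusterings the differences of these 3 genes were as small as -0.90 log2 for Ldhb, -1.13 log2 for Ndrg1 and 0.78 log2 for Slc16a3 in saline, and -1.04, -1.39 and 0.94 log2 in NP. Of the 21 values past 1.5-fold in this contrast, 21 kept their direction under these settings and 13 stayed past 1.5-fold in all of them. Hif1a (-0.78 and -0.62 log2) was also lower and Pfkfb4 (1.23 and 0.75 log2) higher past 1.5-fold in both libraries. Of the 23 genes measured in both libraries, 17 had the same sign of difference in both. By library, 3 of 23 genes were past 1.5-fold higher and 8 lower in saline, and 4 of 26 higher and 6 lower in NP. Of all genes in this contrast, 21.7% in saline and 21.2% in NP were past 1.5-fold higher, and 17.3% and 14.9% lower.

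In endothelial cells, 4 of 22 measured genes were past 1.5-fold, and all 4 were lower in NP, beside 4.85% of 6474 genes lower and 3.82% higher. The median of the 22 genes was -0.27 log2, beside 0.09 for all genes. Slc16a3 was at 117 CPM in saline and 53.7 CPM in NP (-1.12 log2, -1.33 to -0.90), Slc2a3 at 48.9 and 26.6 CPM (-0.88 log2, -1.21 to -0.55), Gapdh at 745 and 435 CPM (-0.78 log2, -0.86 to -0.70), and Pfkfb4 at 34.4 and 20.1 CPM (-0.77 log2, -1.15 to -0.38). Pkm (-0.46 log2), Ldha (-0.40 log2) and Gpi1 (-0.40 log2) were also lower, and Pfkfb3, a known driver of endothelial glycolysis in sprouting vessels, was at 19.5 and 25.5 CPM (0.39 log2, -0.06 to 0.86).

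Each of the 4 genes had its highest level in neutrophils in both libraries, though for Pfkfb4 the interval overlapped that of alveolar macrophages in both. RNA of neutrophil markers was also lower in NP endothelial cells, and whether it accounts for the lower levels of these genes was not tested. S100a8 and S100a9, which neutrophils make in large amounts, took 7.94% of endothelial UMIs in saline and 3.53% in NP, and the 16 neutrophil markers together took 8.89% and 3.94%. All 16 markers were lower in NP, by a median of 1.15 log2, and none was at 0. Most of this RNA was in endothelial cluster 10 (238 saline and 554 NP cells), where the markers took 18.8% and 12.9% of UMIs, against 1.47% and 0.605% in cluster 3 (257 and 937 cells). Slc16a3 was at 228 and 165 CPM in cluster 10 but at 35.7 and 12.0 CPM in cluster 3, and Slc2a3 was at 103 and 80.6 CPM in cluster 10 and 9.59 and 6.83 CPM in cluster 3.

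Without cluster 10, 16 genes reached 200 UMIs, with a median of -0.018 log2, beside -0.039 for all genes, and 0 of them were past 1.5-fold. Of the 4 lower genes, Gapdh was among the 16, at 312 and 244 CPM (-0.35 log2), and Slc16a3, Slc2a3 and Pfkfb4 were not, so their calls could not be made there. On the few UMIs left, Slc16a3 was at 32.7 and 11.7 CPM (-1.49 log2, -2.04 to -0.92), while Slc2a3 (-0.53 log2, -1.49 to 0.52) and Pfkfb4 (-0.25 log2, -1.22 to 0.82) had intervals that included 0. When the neutrophil profile of the same library was subtracted in proportion to S100a8 and S100a9, 18 genes reached 200 UMIs, again without Slc16a3, Slc2a3 and Pfkfb4, and of these the Gapdh ratio was -0.03 log2 and Pfkfb3 was higher by 0.79 log2. Both settings were chosen after the values had been seen. The share of all genes past 1.5-fold was not computed in either, so these counts have no background to be set beside. In cluster 3 the Gapdh level was 279 and 227 CPM (-0.30 log2), and 0 of the 13 genes with 200 UMIs, which did not include Slc16a3, Slc2a3 and Pfkfb4, passed 1.5-fold, beside 2.29% of 4285 genes higher and 1.49% lower. S100a8 and S100a9 fell by 1.30 log2 in cluster 3. In cluster 10, 0 of 13 genes passed 1.5-fold as well, Slc16a3 (-0.47 log2) and Slc2a3 (-0.35 log2) included and Pfkfb4 not, beside 12.8% of 2290 genes higher and 4.32% lower, and the median of the 13 was -0.34 log2.

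**Figure D5:**
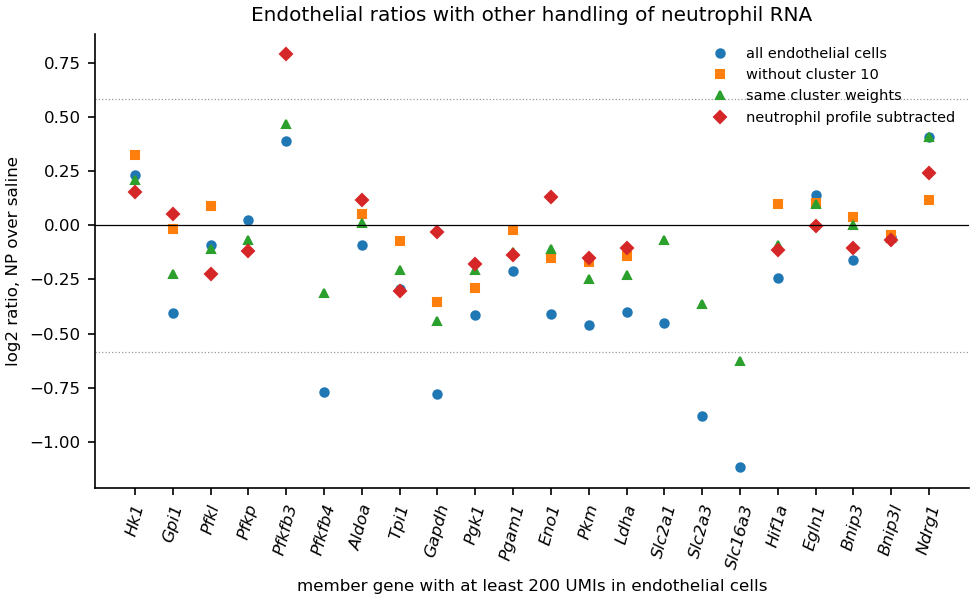
Log2 ratio, NP over saline, of the 22 genes measured in endothelial cells, for all cells of the class (circles), without cluster 10 (squares), with the same cluster weights in both libraries (triangles) and after subtraction of the neutrophil profile of each library (diamonds); a symbol is missing where a gene had under 200 UMIs in that setting, as for Slc16a3, Slc2a3 and Pfkfb4 as squares and diamonds. Dotted lines mark 1.5-fold, and Slc16a3, Slc2a3, Gapdh and Pfkfb4 pass the lower line when all cells are used.

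In B cells the median of the 14 measured genes was -0.34 log2, beside -0.01 for all genes, and 0 of the 14 had a ratio above 0. Of these 14 genes, 2 were lower by over 1.5-fold in NP, beside 3.17% of 4001 genes, and 0 were higher, beside 1.07%. The 2 lower genes were Slc16a3, at 48.9 CPM in saline and 24.0 CPM in NP (-1.03 log2), and Slc2a3, at 39.0 and 21.0 CPM (-0.90 log2). Neutrophil markers took 4.06% of B-cell UMIs in saline and 2.37% in NP. In B-cell cluster 5, with markers at 0.344% and 0.149% of UMIs, 0 of 10 genes passed 1.5-fold, beside 0.613% of 2772 genes higher and 1.12% lower. The median of the 10 was -0.143 log2, beside -0.035 for all genes, and 0 of the 10 had a ratio above 0. These 10 did not include Slc16a3 (9.09 and 6.48 CPM) or Slc2a3 (21.2 and 17.8 CPM), which were under 200 UMIs there. In cluster 19, with markers at 9.11% and 7.09%, 2 of 11 were lower and 0 higher, beside 5.06% of 1481 genes lower and 2.77% higher, and these were Slc16a3 (-0.75 log2) and Gapdh (-0.60 log2). Of the measured genes, 0 passed 1.5-fold in T cells (15 genes, with 3.14% of 3849 genes past it), NK cells (9 genes, 5.05% of 1189), alveolar macrophages (17 genes, 1.44% of 4929) or stromal cells (8 genes, 14% of 1788). The medians were 0.02, 0.17, -0.00093 and -0.09 log2, beside 0.009, -0.018, -0.022 and 0.011 log2 for all genes.

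Other genes of these pathways were examined as lists. The shares of all genes past 1.5-fold to set beside each count are those given above, 3.93% higher and 4.26% lower in neutrophils, 4.09% and 1.76% in monocytes, and 3.82% and 4.85% in endothelial cells. Of the 34 further HIF pathway and hypoxia target genes, 23 were measured in neutrophils and 1 was past 1.5-fold. This was Epas1, which encodes another HIF alpha subunit, at 4.84 CPM in saline and 9.30 CPM in NP (0.94 log2). In monocytes 4 of 23 were past 1.5-fold, all higher in NP. Ddit4, an inhibitor of mTORC1, was at 10.7 CPM in saline and higher in NP by 1.23 log2, Epas1 at 5.99 and 13.3 CPM (1.15 log2), the transcriptional repressor Bhlhe40 at 64.7 and 101 CPM (0.64 log2), and Cited2, which limits HIF activity, at 213 and 321 CPM (0.59 log2). In endothelial cells 1 of 21 passed, Ankrd37, at 52.7 and 26.7 CPM (-0.98 log2). The single genes in neutrophils and endothelial cells are near those shares of all genes. Epas1 was also among the leading genes of endothelial cluster 10, and endothelial cells were 6.30% of saline and 20.4% of NP cells. Whether RNA from endothelial cells was part of the low Epas1 levels in neutrophils and monocytes was not tested.

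Among 11 regulators that link inflammatory signals to HIF1A, Acod1, which makes itaconate, was higher in NP in both neutrophils (105 and 325 CPM, 1.64 log2) and monocytes (3.44 and 20.4 CPM, 2.57 log2). Acod1 was among the leading genes of neutrophil clusters 9 and 11. Cluster 9 held 1.38% of saline and 23.8% of NP neutrophils, and cluster 11 held 3.12% and 16.3%. Clusters 4 (18.6% and 3.08%) and 6 (14.2% and 3.21%) had smaller shares in NP. The part of these shares in the neutrophil ratios was not tested, nor was that of the monocyte cluster shares in the monocyte ratios. Tnf was higher in neutrophils (14.1 and 24.6 CPM, 0.80 log2) and monocytes (5.00 and 7.74 CPM, 0.63 log2), and Nos2, the inducible nitric oxide synthase, was lower in neutrophils (29.8 and 16.8 CPM, -0.83 log2). These were 3 of 9 measured genes of the list in neutrophils, 2 of them higher (beside 3.93% of all genes) and 1 lower (beside 4.26%), and 2 of 8 in monocytes (beside 4.09% higher). Of the other glycolysis and pyruvate genes, 0 of 19 passed in neutrophils, 1 of 22 was higher in monocytes (Tigar, 4.26 and 7.39 CPM, 0.79 log2), beside 4.09% of all genes, and 2 of 12 were lower in endothelial cells, beside 4.85% (Pygl, -1.14 log2, and Adpgk, -0.87 log2). The pentose phosphate genes G6pdx, Tkt and Pgd, 3 of 6 measured, were lower in endothelial cells by 0.71, 0.67 and 0.62 log2, and 0 of 8 passed in neutrophils or monocytes. In endothelial cells the lower neutrophil marker RNA of the NP library stands beside these values too.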

How the data were processed

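Cells from lungs of the saline and NP groups were profiled on the 10x Genomics platform. Per the labels and file headers, the authors demultiplexed reads with bcl2fastq, aligned them to mm10 and counted UMIs per gene with Cell Ranger; the deposited values are raw counts. The submitters' notes name Cell Ranger 6.0 and the matrix headers Cell Ranger 4. Barcodes were filtered as in the study. Each cell was scaled to a total of 10000 on a log scale, and 2000 variable genes without the 32 genes, 30 principal components and 20 neighbors were used for Leiden clustering at resolution 1 (Python 3.11.15, scanpy 1.11.5, leidenalg 0.10.2). Clusters were named from marker lists. Doublets were left in and were removed by Scrublet score in an alternative.

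UMIs were summed per class and library. Ratios of pooled CPM used a floor of 3 counts and genes with at least 200 UMIs over both libraries, and 1.5-fold was the threshold for counting a gene as higher or lower. With 1 library per group there was no test, and cells were not treated as replicates. In neutrophils, monocytes and endothelial cells values could be given for every gene with 200 UMIs, in full for those past 1.5-fold and the 3 with most UMIs per role; in other classes only genes past 1.5-fold were named; of further pathway lists up to 5 genes per direction were named. Alternatives changed the cell filters, doublets, clustering, class labels, scaling, UMI minimum, cluster weights and fold, and background subtraction. The ratio and its interval were tested only on Poisson counts simulated from pooled class means. These counts hold no variation between mice or cells. They also hold no difference in cluster shares or neutrophil RNA between libraries, so the effect of these was not tested. The genes and lists were chosen with earlier results of these data known.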

Additional observations from a re-analysis of the deposited data

Results flagged for a closer look

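Slc2a1, which encodes a facilitative glucose transporter, differed in opposite directions between 2 cell classes. It was higher in NP in monocytes, at 23.4 and 30.9 CPM (0.41 log2, 95% counting interval 0.20 to 0.61), and lower in NP in endothelial cells, at 27.9 and 20.4 CPM (-0.45 log2, -0.86 to -0.03). The difference between these 2 ratios was 0.86 log2, and it was not tested, because each class had 1 library per group. With clusters given the same weight in both libraries, the Slc2a1 ratio was 0.48 log2 in monocytes and -0.07 log2 in endothelial cells, where neutrophil markers fell from 8.89% to 3.94% of UMIs.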

How the results depend on the processing

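No paired analysis was possible because each group had 1 library, and for the same reason no library could be left out in turn. In neutrophils the count of genes past 1.5-fold was 1 in place of 0 when classes came from the marker score of each cell, when ratios were centred on the all-gene median (median of the set 0.088 log2), with a minimum of 50 UMIs, and with no minimum. In monocytes it was 1 in place of 2 with a mitochondrial limit of 5%, without cells of high doublet score, with the same cluster weights and at 2-fold, Slc2a6 being the gene lost except with the same cluster weights, where it was Eno3. It was also lost with a minimum of 200 genes, a mitochondrial limit of 10% or a Leiden resolution of 0.5, where the count stayed at 2 because Slc2a3 reached 200 UMIs and was lower (-0.74, -0.72 and -0.62 log2), and with cell marker scores, where Hk2 was past 1.5-fold in its place. The Eno3 ratio reversed to -0.052 log2 with the same cluster weights. In endothelial cells it was 2 in place of 4 with a mitochondrial limit of 10% or cell marker scores, 1 at a Leiden resolution of 0.5, after subtraction of the profile of barcodes under 50 UMIs, with the same cluster weights and at 2-fold, 0 without cells of high doublet score, and 7 with no minimum. It was 6 with a mitochondrial limit of 5%, of which Pfkfb3 and Ndrg1 were higher, 5 with equal weight per cell, of which Pfkfb3 was higher, and 4 at a Leiden resolution of 2, of which Pfkfb3 was higher. Of the 2 settings added after the data had been seen, leaving out cluster 10 gave 0 genes and a median of -0.018 log2, and subtraction of the neutrophil profile gave 1 gene, Pfkfb3, which was higher. Slc16a3, Slc2a3 and Pfkfb4 were under 200 UMIs in both of these settings, and also without cells of high doublet score and after subtraction of the barcode profile, so their calls could not be made there. The cause of these changes was not tested, except that fewer genes reached 200 UMIs where cells were left out. Over the settings, the genes measured ran from 27 to 32 in neutrophils and from 26 to 32 in monocytes. In endothelial cells they ran from 16 to 31, with 17 without cells of high doublet score and 31 with no minimum. The share of all genes past 1.5-fold was not computed for each setting, so these counts have no background to be set beside. Over all settings, 406 of 432 values of single genes kept their direction in neutrophils, 407 of 416 in monocytes, 326 of 362 in endothelial cells and 218 of 224 in B cells. Depth limits the genes under 200 UMIs, and a single pooled library per group leaves variation between mice unmeasured.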
